A study of Mus musculus with 6 samples.

Results

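Proteasome subunits and protein-folding chaperones were compared between 2 kinds of cancer stem-like cells from mouse prostate, called TPIN and TNE and kept in culture. The members were all genes whose symbol begins with Psm and a subunit letter from a to g, Cct, Dnaj with the class letter a, b or c, or Hsp with a family letter or number, together with Tcp1, each from a row of the array table that carries 1 gene symbol. The immunoproteasome subunits Psmb8, Psmb9 and Psmb10 were left out by the same definition. This gave 92 genes of 9490 tested, out of 132 protein-coding RefSeq genes whose symbols match. The other 40 have no row of their own in the table and are not analysed here, among them Hspa5, Hspa8, Hsp90ab1, Psmb1 and Psmb4. All cells came from prostates of TRAMP mice, a transgenic strain in which viral T antigens under a probasin promoter, active in prostate epithelium, drive prostate cancer. The 3 TPIN samples came from mice of 10 to 11 weeks with prostate intraepithelial neoplasia, and the 3 TNE samples from mice with neuroendocrine tumours, whose age the labels do not give. Both were grown in DMEM F12 without serum and with EGF and FGF2, and total RNA of each sample was hybridised to 1 array. The free-text description of all 6 samples names intraepithelial neoplasia, so the groups were taken from titles and cell types. Whether samples of one group are separate mice or cultures is not in the labels, so p-values measure only the spread between samples, and this may be technical.

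Proteins marked for removal carry ubiquitin chains and are unfolded and cut by the 26S proteasome. Its 20S barrel has outer rings of alpha subunits and inner rings of beta subunits, 3 of which are the proteases, and the 19S cap binds ubiquitin, removes it and drives the substrate into the barrel with a ring of ATPases. Chaperones act before that step. The CCT ring folds actin and tubulin, HSP70 proteins bind unfolded stretches with the help of J proteins that bring substrates and trigger ATP hydrolysis, HSP110 proteins exchange the nucleotide, and HSP90 matures kinases and steroid receptors. In mitochondria HSP60 and its lid HSP10 form a folding cage, and small heat shock proteins, abundant in muscle and other contractile cells, hold unfolded proteins without ATP. Many of these genes are targets of heat shock factors, which bind inverted repeats of the unit GAA, and those of the endoplasmic reticulum are targets of the unfolded protein response.

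The following promoter stretches are shown because they hold stress-response elements, and the expression of each gene shown is given among the results. Families of members were formed by gene symbol and not by these elements. They were read from RefSeq windows of 300 bases (250 before to 50 after each gene's start, assembly GRCm38.p6), which were found for 76 of the 92 genes, 13 of them among the genes that passed the expression test. Capitals mark the element found by the search. Hspe1, Dnajb6 and Hsph1 hold at least 3 alternating units in the pattern of the heat shock element, Hspa1a holds 2 units, and Dnajc3 and Hsp90b1 hold the endoplasmic reticulum stress element. The run in Hsph1 lies after the gene's start, and the other elements shown lie before it.
Hspe1, chr1:55088038-55088097, plus strand: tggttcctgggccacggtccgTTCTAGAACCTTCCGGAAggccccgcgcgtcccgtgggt
Dnajb6, chr5:29735828-29735887, plus strand: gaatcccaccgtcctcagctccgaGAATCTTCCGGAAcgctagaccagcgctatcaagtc
Hsph1, chr5:149636280-149636309, minus strand: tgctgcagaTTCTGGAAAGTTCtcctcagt
Hspa1a, chr17:34972227-34972286, minus strand: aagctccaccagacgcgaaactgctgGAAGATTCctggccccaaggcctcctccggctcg
Dnajc3, chr14:118937806-118937865, plus strand: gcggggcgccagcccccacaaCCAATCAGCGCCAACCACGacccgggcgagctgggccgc
Hsp90b1, chr10:86705525-86705664, minus strand: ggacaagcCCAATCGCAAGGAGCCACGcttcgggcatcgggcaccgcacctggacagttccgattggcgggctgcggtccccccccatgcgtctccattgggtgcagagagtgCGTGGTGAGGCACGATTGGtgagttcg

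A match is a description of letters and not a binding site. A pair of adjacent units, searched as GAANNTTC or TTCNNGAA, occurred in the windows of 19 of the 76 matched genes (25%) and of 17% of all 27025 genes with a window. The longer run of at least 3 units, which contains the shorter one, was found in 4 genes (Hspd1, Hspe1, Hsph1 and Dnajb6, 5.26%) against 0.662% of all genes. The windows of Hspd1 and Hspe1 overlap, and their matches are the same bases, counted for each gene in both shares of members. The CCAAT box, read as CCAAT or ATTGG and in part contained in the endoplasmic reticulum stress element, occurred in 30 genes (39.5%) against 41.1% of all genes. The endoplasmic reticulum stress element was found in 2 genes (2.63%) against 0.137% of all genes. Of the 13 matched genes that passed the expression test, Hsph1 and Cct6a held the 2-unit element, Hsph1 alone the longer run, none the endoplasmic reticulum stress element, and 7 the CCAAT box. The match in Cct6a and the longer run in Hsph1 lie after the gene's start.

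Across all 92 genes, 11 were higher in TNE and 3 lower at a limma adjusted p under 0.05. The genes that rose were the proteasome genes Psma7, Psmc1 and Psmc5, the CCT subunits Cct6a, Cct7 and Cct8, the chaperones Hsp90aa1, Hsph1 and Hspa14, the J protein Dnajc9, and Psmc3ip, which matches by symbol but encodes a factor of homologous pairing in recombination and not a proteasome subunit. Those that fell were Hspa12b, Dnajc1 and Dnajc15. The 14 genes are 15.2% of the members, against 20.5% of all genes tested. The share higher in TNE was 12% of the members and 10.3% of all genes, and the share lower was 3.26% and 10.2%. Groups were also read without a test: all 3 TNE arrays lay above all 3 TPIN arrays for 35 members (38%, against 23.3% of all genes) and below them for 9 (9.78%, against 20.5%), and the groups overlapped for 48. The median log2 difference, TNE minus TPIN, was 0.38 over the members and -0.02 over all genes. Of the 92 differences 59 were positive, or 64.1%, against 49.2% of all genes.

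**Figure D1:**
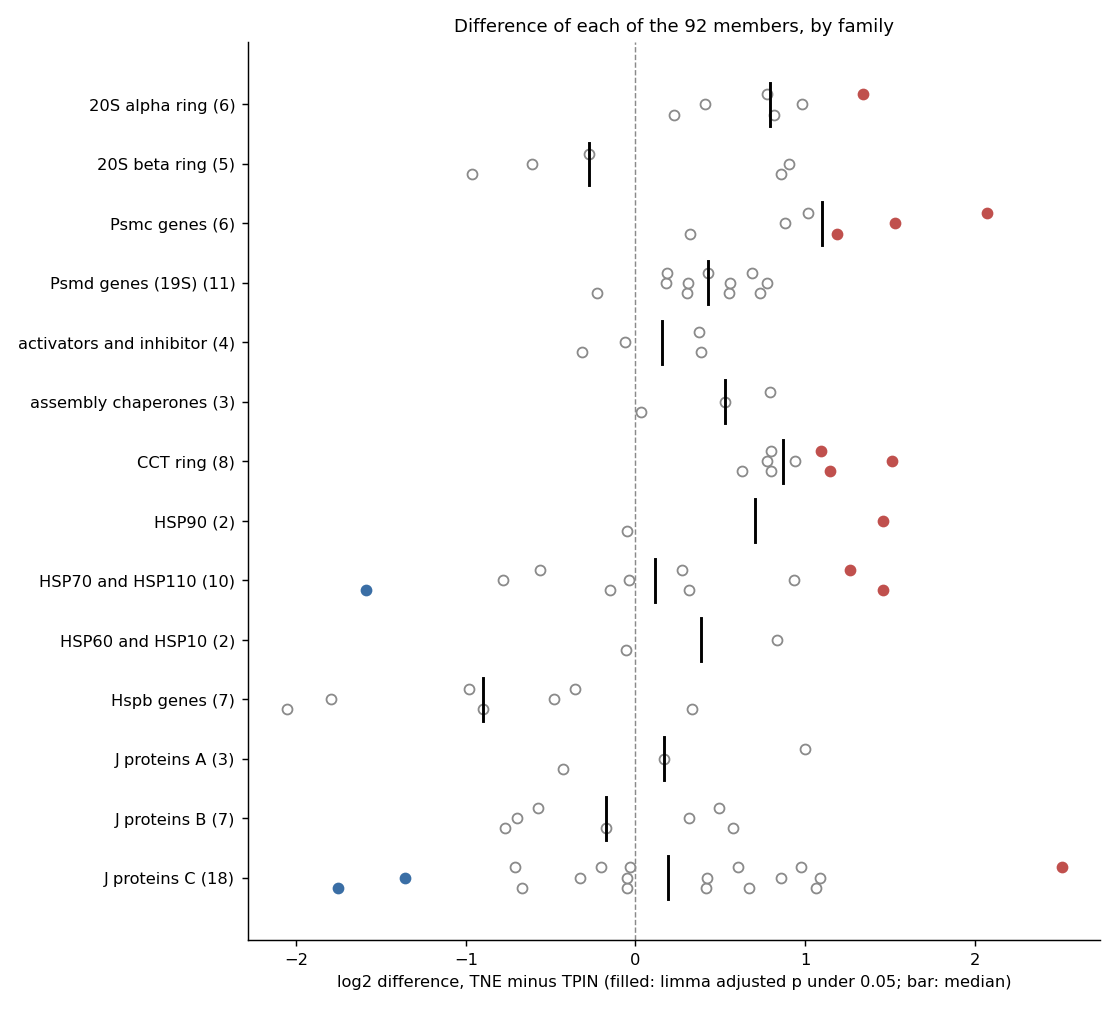
Log2 difference (TNE minus TPIN) of each of the 92 genes on the horizontal axis, with one line of points per family and the number of genes in brackets; filled points passed limma at an adjusted p under 0.05, and black bars are family medians. All 8 points of the CCT ring lie to the right of 0, while 6 of 7 in the Hspb line lie to the left.

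The count of genes past the threshold depended on single arrays, both among the members and over all genes. Leaving out TPIN replicate 1 or TNE replicate 2 gave 2 higher members, and leaving out TPIN replicate 2 gave 4. Leaving out TNE replicate 1 or TNE replicate 3 gave 7. In either direction, 4.35% of the members and 9.86% of all genes passed without TPIN replicate 1. The shares were 6.52% and 11.7% without TPIN replicate 2, and 12% and 18.2% without TNE replicate 1. They were 3.26% and 8.77% without TNE replicate 2, and 10.9% and 14% without TNE replicate 3. Without TPIN replicate 3 the count of higher genes was 25 and of lower genes 9, together 37% of the members against 27.4% of all genes. The lower count was 1 without TNE replicate 2. TPIN replicate 3 was the array on which most members stood apart from the other 2 arrays of its group by more than 1 on the log2 scale: 5 members (5.43%) lay above, namely Cct8, Dnajb6, Dnajc8, Psma7 and Psmc5, against 4.5% of all genes, and 8 (8.7%) lay below, namely Dnajb9, Hspb1, Hspb6, Hspb7, Hspb8, Hspbp1, Psmb3 and Psmb5, against 6.13%. These shares were close to those of all genes, and their difference was not tested. Within groups the median SD of a member was 0.36 in TPIN and 0.26 in TNE.

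The labelled cell type could be checked with few markers. Of 8 epithelial markers only Krt8 and Krt18 have a row, and their mean lay between 8.06 and 8.14 in TPIN and between 7.47 and 7.70 in TNE. Uchl1, Eno2 and Ncam1 were the 3 of 8 neuroendocrine markers with a row, with means of 9.40 to 10.15 in TPIN and 10.12 to 10.44 in TNE. They did not move together: Uchl1 rose (log2 difference 2.67, limma adjusted p = 0.00464), Ncam1 had a difference of 0.04, and Eno2 had one of -0.79 (adjusted p = 0.11) with all TNE arrays below all TPIN arrays. Of 8 leukocyte markers Lyz2 and Cd68 have a row, and TNE replicate 3 stood apart on them with a mean of 9.38, against 6.76 to 7.47 on the other 5 arrays. Lyz2 measured 9.39 on that array and 5.73 to 6.99 on the others. Fibroblast and smooth muscle markers had 13 of 14 rows, and 11 of the 13 fell in TNE: their mean lay between 11.73 and 11.92 in TPIN and between 7.69 and 8.78 in TNE. RMA values have no true 0, so no marker can be called absent. In such bulk samples fewer cells of a type and less RNA per cell cannot be told apart, and the part of the marker genes in the differences described here was not tested. Array medians over the 9490 genes tested were 8.99 to 9.05 in TPIN and 8.83 to 9.13 in TNE, the lowest being TNE replicate 3.

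The 20S barrel was measured through 6 alpha-ring and 5 beta-ring genes. All 6 alpha-ring genes had positive differences, against 49.2% of all genes, with a median of 0.80. Of these 1, Psma7, passed the test (16.7%, against 10.3% of all genes higher). Psma7 measured 9.05, 9.19 and 10.29 in TPIN and 10.68, 10.99 and 10.89 in TNE, 2.54-fold higher (log2 difference 1.34, SE 0.38, limma adjusted p = 0.0419). The groups did not overlap, but TPIN replicate 3 lay closer to the TNE arrays than to the other TPIN arrays. Psma7 passed with TPIN replicate 3 left out (adjusted p = 0.0106) and with none of the other 5 arrays left out. Psma1, another alpha-ring gene, measured 11.34, 11.11 and 10.77 in TPIN and 11.27, 11.56 and 11.07 in TNE, with overlapping groups and a difference of 0.23 (95% interval -0.43 to 0.89). The remaining 4, Psma2, Psma4, Psma5 and Psma6, had differences of 0.41 to 0.98, none past the threshold, and are named as the other measured genes of the ring.

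None of the 5 measured beta-ring genes passed the test in limma, 2 did at an unadjusted p under 0.05, both positive, and their median difference was -0.27. The 3 proteolytic subunits all have a row. Psmb7, the trypsin-like protease, measured 10.86, 10.72 and 10.89 in TPIN and 11.52, 11.91 and 11.60 in TNE, a difference of 0.86 (SE 0.26, limma adjusted p = 0.0518), with every TNE array above every TPIN array. Psmb7 came to a limma adjusted p of 0.048 without TPIN replicate 3, where 27.4% of all genes passed. Without any other single array its adjusted p was 0.0837 to 0.187. Psmb6, the caspase-like protease, named after its values were seen, had a difference of 0.91 (limma adjusted p = 0.074), also without overlap. Psmb5, the chymotrypsin-like protease and the main target of proteasome inhibitor drugs, likewise named after its values were seen, measured 12.33, 12.03 and 10.04 in TPIN and 10.69, 10.51 and 10.29 in TNE. TPIN replicate 3 lay below all TNE arrays, and the other 2 TPIN arrays lay above all of them. Over all arrays the difference was -0.97 (SE 0.57, limma adjusted p = 0.244), and without TPIN replicate 3 it was -1.68 (adjusted p = 0.013). Psmb3, a structural beta subunit, showed the same order of arrays, with 12.10, 12.37 and 10.12 in TPIN and 10.88, 11.17 and 10.71 in TNE. Its difference moved from -0.61 (limma adjusted p = 0.446) to -1.32 (adjusted p = 0.0215) without TPIN replicate 3. Psmb5 and Psmb3 are among the genes on which that array stood apart, so singling it out rests in part on their own values. Their results without it are descriptions, and no fall is concluded from them.

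The ATPase ring of the 19S cap was measured through 5 subunits, Psmc6 having no row of its own. All 5 had positive differences, against 49.2% of all genes, with a median of 1.02. For 4 the TNE arrays all lay above the TPIN arrays, a pattern found in 23.3% of all genes. The test was passed by 2, Psmc1 and Psmc5, where 10.3% of all genes were higher. With Psmc3ip, which shares the symbol prefix, the 6 Psmc genes had a median of 1.10 and 3 passed. Psmc5 measured 9.21, 9.39 and 10.49 in TPIN and 11.32, 11.60 and 10.76 in TNE, 2.89-fold higher (log2 difference 1.53, SE 0.41, limma adjusted p = 0.0379). The nearest arrays of the groups, TPIN replicate 3 and TNE replicate 3, lay close to each other. Psmc1 measured 9.19, 9.78 and 10.03 in TPIN and 10.56, 11.02 and 10.98 in TNE, 2.28-fold higher (log2 difference 1.19, SE 0.32, limma adjusted p = 0.0364). Psmc5 kept its call with TPIN replicate 3 or TNE replicate 3 left out and lost it without each of the other 4 arrays, where adjusted p reached 0.131. Psmc1 kept its call without TPIN replicate 3 or TNE replicate 1 and lost it without each of the other 4 (adjusted p up to 0.13). The ATPases Psmc2 and Psmc3, named as further measured subunits, had differences of 1.02 and 0.88 without overlap and did not pass. Psmc4, another ATPase of the ring, measured 10.75, 10.56 and 9.96 in TPIN and 10.80, 11.08 and 10.37 in TNE, a difference of 0.32 (95% interval -0.44 to 1.08) with overlapping groups.

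Psmc3ip, the recombination factor, measured 6.77, 7.33 and 7.29 in TPIN and 9.03, 9.47 and 9.12 in TNE, 4.21-fold higher (log2 difference 2.07, SE 0.29, limma adjusted p = 0.0039). The groups were far apart on every array, and the call held with each of the 6 arrays left out in turn. Without it the proteasome genes number 34, of which 3 passed (8.82%, against 10.3% of all genes higher). Positive differences were found for 28 (82.4%, against 49.2% of all genes), with a median of 0.48. All 35 Psm genes gave 4 passed, 29 positive and a median of 0.53. No Psm gene fell at the threshold in limma, and none was lower at an unadjusted p under 0.05 with all 6 arrays. Without TPIN replicate 3, Psmb3 and Psmb5 were lower, both among the genes on which that array stood apart.

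The remaining 19S genes, Psmd, form the lid and base of the cap, with Psmd9 and Psmd10 as assembly chaperones. Of 11 measured genes 10 had positive differences (90.9%, against 49.2% of all genes), with a median of 0.43. None passed the test in limma (2 at an unadjusted p under 0.05). Psmd6, a lid subunit with the smallest p of the family, measured 10.07, 9.88 and 10.52 in TPIN and 11.16, 10.82 and 10.82 in TNE, a difference of 0.77 (SE 0.29, limma adjusted p = 0.0895). All TNE arrays lay above the TPIN arrays. Psmd6 came to a limma adjusted p of 0.0398 without TPIN replicate 3, and of 0.129 to 0.243 without any other single array. Psmd2, a large scaffold subunit of the base, measured 11.50, 11.85 and 11.54 in TPIN and 12.28, 12.02 and 11.52 in TNE, a difference of 0.31 (SE 0.30, limma adjusted p = 0.469), and TNE replicate 3 lay among the TPIN values. Psmd14, the deubiquitinase of the lid, named after its values were seen, had a difference of 0.55 (95% interval -0.14 to 1.24) with no overlap of the groups.

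Genes that activate, inhibit or assemble the proteasome did not pass the test. Psme1, Psme3 and Psme4 encode caps that open the barrel without ubiquitin, and Psmf1 encodes an inhibitor. Their differences lay between -0.32 and 0.39, all 4 with overlapping groups and none below an unadjusted p of 0.05. Psme4, the activator with the smallest p, measured 10.39, 10.63 and 10.74 in TPIN and 11.17, 11.24 and 10.51 in TNE. The assembly chaperones Psmg1 and Psmg2, which pair to build the alpha ring, had differences of 0.79 (limma adjusted p = 0.107) and 0.53 (adjusted p = 0.229). Psmg1 measured 8.26, 8.84 and 9.18 in TPIN and 9.62, 9.69 and 9.35 in TNE, without overlap. It came to a limma adjusted p of 0.0497 without TPIN replicate 3, and of 0.131 to 0.294 without any other single array.

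Partners of the proteasome outside these families were read from a list of their own. Of 31 listed ubiquitin and proteasome partner genes 16 have a row, and 1 rose, Uchl5 (6.25%, against 10.3% of all genes). Uchl5, a deubiquitinase that docks on the 19S cap, measured 8.68, 8.79 and 9.17 in TPIN and 10.64, 10.85 and 10.07 in TNE, 3.11-fold higher (log2 difference 1.64, SE 0.31, limma adjusted p = 0.0113). Its groups were apart on all arrays, and its call was lost without TNE replicate 2 (adjusted p = 0.0541). Pomp, which guides the beta subunits into the barrel, measured 9.38, 9.64 and 11.25 in TPIN and 11.76, 11.98 and 11.44 in TNE. The difference of 1.64 (SE 0.50) had a limma adjusted p of 0.0526, and of 0.0079 without TPIN replicate 3, the array nearest to TNE. Without any other single array the adjusted p of Pomp was 0.08 to 0.161. Midn, which brings proteins to the proteasome without ubiquitin, had a difference of -1.23 (limma adjusted p = 0.0615). Its adjusted p was 0.0113 without TPIN replicate 3 and 0.104 to 0.184 without any other single array. The proteasome-bound ligase Ube3c had a difference of 0.65 (adjusted p = 0.0879). None fell at the threshold in limma, 1 was lower at an unadjusted p under 0.05, 9 of the 16 differences were positive and the list's median was 0.06, against -0.02 over all genes. Leaving out TPIN replicate 3 gave 3 higher and 2 lower, and leaving out TNE replicate 2 gave none past the threshold.

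The CCT ring lay higher in TNE throughout. For all 8 genes the 3 TNE arrays lay above the 3 TPIN arrays, a pattern found in 23.3% of all genes, and the differences ran from 0.63 for Cct4 to 1.52 for Cct8 with a median of 0.87. The mean of the 8 genes was 10.76, 11.09 and 11.36 in TPIN and 11.97, 12.25 and 11.87 in TNE. The highest of the TPIN means, replicate 3, still lay below the lowest TNE mean. Cct6a, Cct7 and Cct8 passed the test (37.5%, against 10.3% of all genes higher), and 7 of 8 had an unadjusted p under 0.05. All 8 differences stayed positive under each other processing and with each array left out.

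Cct8 measured 9.74, 10.29 and 11.37 in TPIN and 12.02, 12.21 and 11.72 in TNE, 2.86-fold higher (log2 difference 1.52, SE 0.43, limma adjusted p = 0.044). Cct7 measured 10.51, 10.65 and 11.06 in TPIN and 11.73, 12.11 and 11.82 in TNE, 2.22-fold higher (log2 difference 1.15, SE 0.28, limma adjusted p = 0.0271). Cct6a measured 11.27, 11.33 and 11.38 in TPIN and 12.31, 12.94 and 12.01 in TNE, 2.13-fold higher (log2 difference 1.09, SE 0.31, limma adjusted p = 0.0441). Cct8 was the most variable of these in TPIN and Cct6a the least, so the calls rest on different parts of the spread. Cct8 kept its call only with TPIN replicate 3 left out (adjusted p up to 0.14 without the others), Cct6a only with TNE replicate 3 left out (adjusted p up to 0.158), and Cct7 only with TPIN replicate 3 or TNE replicate 1 left out (adjusted p up to 0.115). The number of CCT genes past the threshold was 4 after leaving out TPIN replicate 3, 1 after leaving out either TNE replicate 1 or TNE replicate 3, and 0 for each of the other 3 arrays. Cct2, another subunit, measured 11.48 to 12.01 in TPIN and 12.45 to 12.74 in TNE without overlap, a difference of 0.78 (SE 0.28, limma adjusted p = 0.0811). Re-normalizing the arrays to one distribution brought Cct2 to an adjusted p of 0.0354 and the number of CCT genes past the threshold to 7.

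**Figure D2:**
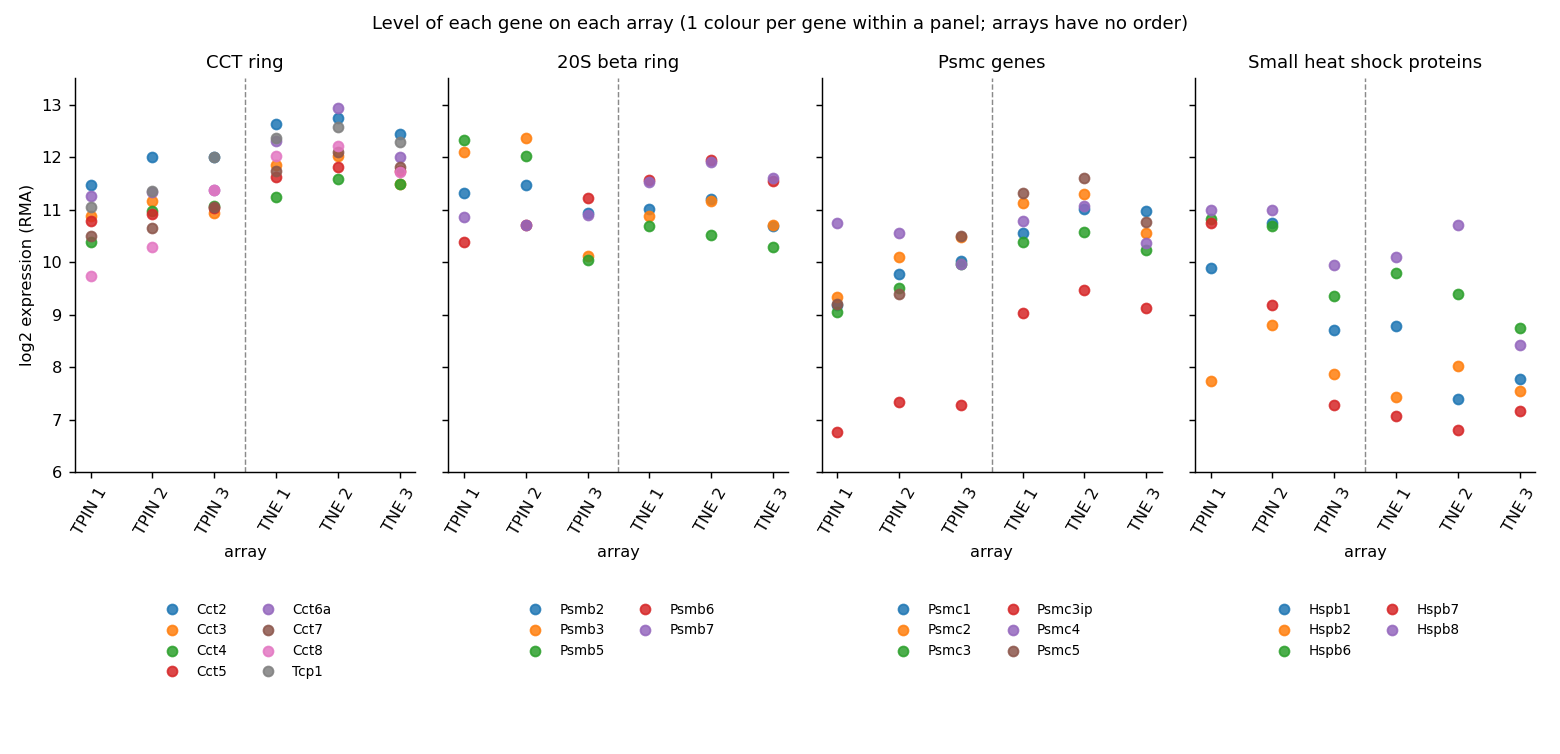
Log2 expression (RMA) on the vertical axis for each array on the horizontal axis, with 3 TPIN arrays left and 3 TNE arrays right of the dashed line, in 4 panels (CCT ring, 20S beta ring, Psmc genes, small heat shock proteins), 1 colour per gene. In the beta ring Psmb3 and Psmb5 fall from above 12 in TPIN replicates 1 and 2 to 10.12 and 10.04 in TPIN replicate 3, and in the right panel Hspb7 runs from 10.75 to 7.28 within TPIN.

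Between the 2 measured HSP90 genes the cytosolic one differed and that of the endoplasmic reticulum did not pass. Hsp90aa1, the stress-inducible cytosolic HSP90, measured 10.11, 10.92 and 10.52 in TPIN and 11.80, 11.86 and 12.27 in TNE, 2.75-fold higher (log2 difference 1.46, SE 0.31, limma adjusted p = 0.0171). Every TNE array lay above every TPIN array, and the call was lost without TPIN replicate 1 or TNE replicate 2 (adjusted p up to 0.0628). Hsp90b1, whose promoter holds both copies of the endoplasmic reticulum stress element shown before, measured 12.69, 12.59 and 12.80 in TPIN and 12.77, 12.50 and 12.68 in TNE. The arrays of the groups were mixed, and the difference was -0.05 (95% interval -0.63 to 0.53). The sign of that small difference turned positive under quantile normalization and with TPIN replicate 3 or TNE replicate 2 left out.

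Among 10 genes of the HSP70 and HSP110 families 2 rose (20%, against 10.3% of all genes) and 1 fell (10%, against 10.2%). Hsph1, an HSP110 nucleotide exchange factor and the only gene past the threshold with the longer heat shock element in its window, measured 9.76, 10.01 and 9.86 in TPIN and 11.45, 11.68 and 10.87 in TNE. The groups were separated by more than the whole TPIN range, at 2.75-fold (log2 difference 1.46, SE 0.30, limma adjusted p = 0.0152). Hspa14, a ribosome-associated HSP70, measured 8.86, 9.09 and 9.20 in TPIN and 10.29, 10.59 and 10.07 in TNE, 2.40-fold higher (log2 difference 1.26, SE 0.27, limma adjusted p = 0.0175). Hsph1 lost its call without TPIN replicate 1 or TNE replicate 2 (adjusted p up to 0.0702), and Hspa14 without either of these or TPIN replicate 2 (adjusted p up to 0.0848). Dnajc2, the J protein that pairs with Hspa14 on the ribosome, named after its values were seen, had a difference of 0.86 (limma adjusted p = 0.0623) without overlap of the groups.

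Hspa12b, a divergent HSP70 known from endothelium, measured 8.84, 8.72 and 9.26 in TPIN and 7.08, 7.37 and 7.59 in TNE, 3.01-fold lower (log2 difference -1.59, SE 0.29, limma adjusted p = 0.00961). It was below the TPIN range on all 3 TNE arrays and kept its call with each array left out. Of 6 endothelial markers 3 have a row, with a mean of 7.38 to 8.11 in TPIN and 7.19 to 7.93 in TNE: Cdh5 rose, Flt1 fell and Tek did not pass. Hspa9, the mitochondrial HSP70, measured 11.98, 11.98 and 12.19 in TPIN and 12.70, 12.39 and 11.88 in TNE, with overlapping groups and a difference of 0.27 (95% interval -0.42 to 0.97). Hspa1a, the inducible HSP70 with the 2-unit element shown before and named for it, measured 9.28, 8.67 and 9.30 in TPIN and 8.46, 8.21 and 8.24 in TNE. Its TNE arrays all lay below the TPIN arrays, with a difference of -0.78 (SE 0.29) and a limma adjusted p of 0.0871. Its near-identical copy Hspa1b has no row of its own, so signal of the pair may be mixed. Hsph1 and Hspa1a, 2 of the 19 members with heat shock element letters, had differences of opposite sign, and Hspa1a did not pass. A link between these letters and expression was not tested.

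The mitochondrial pair Hspd1 (HSP60) and Hspe1 (HSP10) is transcribed from one shared stretch of promoter. On GRCm38.p6 chromosome 1 Hspd1 starts at 55087932 on the minus strand and Hspe1 at 55088148 on the plus strand, with 215 bases between, and the heat shock element shown for Hspe1 lies in that stretch and therefore in both windows. Hspd1 measured 10.54, 10.82 and 10.43 in TPIN and 11.71, 11.64 and 10.94 in TNE, a difference of 0.84 (SE 0.31, limma adjusted p = 0.0883) with every TNE array above TPIN. Hspe1 measured 11.20, 11.51 and 11.48 in TPIN and 11.60, 11.48 and 10.93 in TNE, a difference of -0.06 (95% interval -0.73 to 0.61) with overlapping groups, whose sign turned positive under quantile normalization, under array weights and without TNE replicate 3. The value of Hspd1 minus that of Hspe1, which removes what both share on an array, was -0.67, -0.70 and -1.05 in TPIN and 0.11, 0.16 and 0.00 in TNE. It was higher on all 3 TNE arrays, by 0.89. The pair was chosen after its values were seen, so the gap is a description. An exact permutation over the 20 splits of the arrays gave p = 0.1. That is the smallest value it can reach with so few arrays, so no conclusion is drawn from it. The scale of 1 row cannot be set against that of another, so only the change of this gap between groups is read.

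Small heat shock proteins had negative differences and a wide spread within TPIN. Of the 7 Hspb symbols, Hspbp1 (an exchange factor of HSP70) and Hspbap1 are not small heat shock proteins. The other 5, Hspb1, Hspb2, Hspb6, Hspb7 and Hspb8, had differences from -0.48 to -2.06 with a median of -0.98, and they stayed negative with each array left out and in the other processings in which they were tested. None passed in limma and 2 did at an unadjusted p under 0.05. Their mean was 10.04, 10.08 and 8.64 in TPIN and 8.64, 8.47 and 7.93 in TNE. TPIN replicates 1 and 2 thus lay above TNE, and TPIN replicate 3 lay level with the highest TNE array.

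Hspb7, a form known from heart and muscle, measured 10.75, 9.19 and 7.28 in TPIN and 7.08, 6.80 and 7.17 in TNE, a difference of -2.06 (SE 0.76, limma adjusted p = 0.0883). The TPIN arrays spanned more than 3 on the log2 scale while the TNE arrays lay close together. Hspb1 (HSP27), an actin-protecting form, measured 9.88, 10.74 and 8.71 in TPIN and 8.79, 7.40 and 7.77 in TNE, a difference of -1.79 (SE 0.57, limma adjusted p = 0.0595). Only TPIN replicate 3 and TNE replicate 1 crossed, and Hspb1 came to an adjusted p of 0.0252 without the former and 0.0388 without the latter. Without any other single array its adjusted p was 0.126 to 0.177. Hspb8, which works with the co-chaperone Bag3, measured 10.99, 10.99 and 9.95 in TPIN and 10.10, 10.71 and 8.42 in TNE, a difference of -0.90 (95% interval -2.29 to 0.49). Replicate 3 of each group was the lowest of its group. Without TPIN replicate 3, Hspb1, Hspb6 and Hspb7 were lower at limma adjusted p of 0.0252, 0.0356 and 0.0141. They are among the genes on which that array stood apart, so singling it out rests in part on their own values. These results are descriptions, and no fall is concluded from them. The smooth muscle markers Acta2 and Tagln moved the same way between the groups. Acta2 was 12.60 to 13.11 in TPIN and 7.53 to 9.68 in TNE, and Tagln 10.58 to 11.60 and 6.69 to 7.85. Cnn1 measured 8.59, 9.42 and 6.52 in TPIN, overlapped with TNE and did not pass (limma adjusted p = 0.115). Acta2, Tagln, Cnn1, Dcn, Des and Thy1 were lowest in TPIN on replicate 3. Col1a1, Col1a2, Col3a1, Lum and Pdgfra were highest there. The mean of all 13 fibroblast and smooth muscle markers was 11.734, 11.917 and 11.805 in TPIN. Their part in the small heat shock protein values was not tested.

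The 28 J proteins held both the largest rise and the largest fall of members past the threshold, with a median of 0.07. Among the 28 genes 1 was higher (3.57%, against 10.3% of all genes) and 2 lower (7.14%, against 10.2%). Dnajc9, a J protein that also handles histones for chromatin assembly, measured 8.47, 8.65 and 8.33 in TPIN and 11.27, 10.60 and 11.12 in TNE, 5.71-fold higher (log2 difference 2.51, SE 0.29, limma adjusted p = 0.00205). The nearest arrays of the groups, at 8.65 and 10.60, were far apart, and the call held with each of the 6 arrays left out. Dnajc15, an inner-membrane protein of mitochondria that restrains respiration, measured 9.70, 9.71 and 10.46 in TPIN and 8.15, 7.68 and 8.79 in TNE, 3.37-fold lower (log2 difference -1.75, SE 0.38, limma adjusted p = 0.0176). Its call was lost only without TNE replicate 2 (adjusted p = 0.0711). Dnajc1, a membrane J protein of the endoplasmic reticulum, measured 9.68, 9.57 and 9.57 in TPIN and 8.57, 8.48 and 7.69 in TNE, 2.56-fold lower (log2 difference -1.36, SE 0.31, limma adjusted p = 0.0224). The TPIN arrays lay close together, and the call was lost when either TPIN replicate 1 or 2, or TNE replicate 2, was left out (adjusted p up to 0.0768).

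Other J proteins did not pass. Dnaja1, the main cytosolic J protein of HSP70, measured 8.80, 9.14 and 9.28 in TPIN and 9.82, 10.51 and 9.90 in TNE, 2.002-fold (SE 0.30 on the log2 scale, limma adjusted p = 0.0526). Its groups did not overlap, and it came to an adjusted p of 0.0489 without TPIN replicate 3 and 0.0451 with quantile normalization. Without any other single array its adjusted p was 0.0682 to 0.185. Dnajb11, which serves HSP70 in the endoplasmic reticulum, measured 9.78, 9.86 and 10.32 in TPIN and 10.78, 10.57 and 10.32 in TNE, a difference of 0.57 (95% interval -0.09 to 1.23). Dnajc10, a disulfide reductase there, measured 9.96, 10.50 and 11.42 in TPIN and 11.83, 11.27 and 10.60 in TNE, with overlapping groups and a difference of 0.61 (95% interval -0.47 to 1.68). Of the genes whose promoters are shown, Dnajb6, an aggregation-suppressing J protein with a run of 3 heat shock units, measured 7.04, 7.29 and 8.50 in TPIN and 7.82, 8.15 and 7.80 in TNE, a difference of 0.31 (95% interval -0.64 to 1.27). Dnajc3, an inhibitor of stress kinases with the endoplasmic reticulum stress element, measured 11.11, 10.52 and 10.97 in TPIN and 10.82, 10.46 and 10.35 in TNE, a difference of -0.33 (SE 0.29, limma adjusted p = 0.429). Both overlapped between the groups. None of the 7 class B genes passed in limma, nor at an unadjusted p under 0.05, and none of the 3 class A genes passed in limma, 1 of them at an unadjusted p under 0.05.

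**Figure D3:**
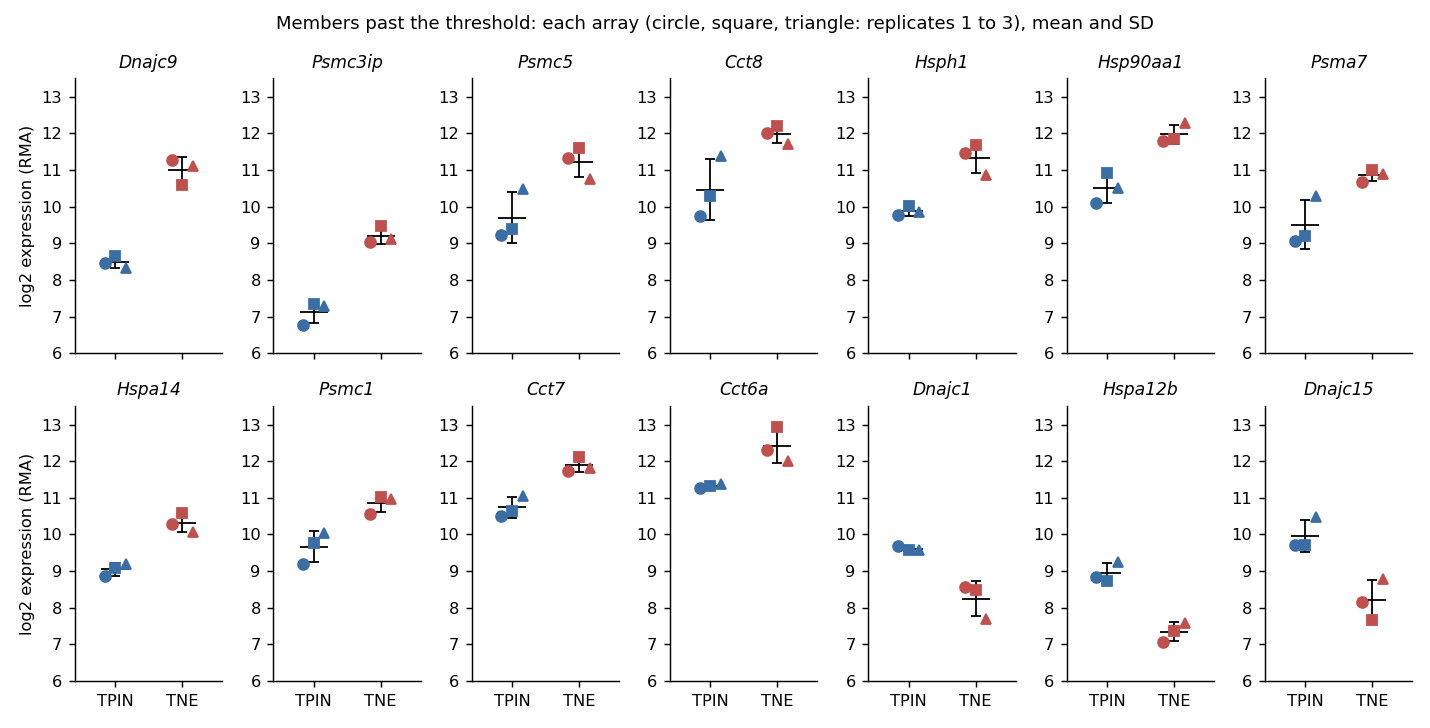
Log2 expression (RMA) of the 14 genes past the limma threshold, one panel per gene; circle, square and triangle are replicates 1, 2 and 3 of TPIN (blue) and TNE (red), and black bars are mean and SD over 3 arrays. In every panel the groups are apart, and the gap is widest for Dnajc9, at 8.33 to 8.65 against 10.60 to 11.27.

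Co-chaperones that work with these families were read from a list of 42 genes, of which 27 have a row. Of these 8 rose in limma (29.6%, against 10.3% of all genes) and 1 fell (3.7%, against 10.2%). For 18 genes (66.7%, against 23.3% of all genes) the TNE arrays all lay above the TPIN arrays, 23 differences (85.2%, against 49.2%) were positive, and the median was 0.77. Fkbp4, an immunophilin partner of HSP90, measured 9.81, 9.86 and 10.30 in TPIN and 11.91, 11.75 and 11.28 in TNE, 3.15-fold higher (log2 difference 1.66, SE 0.30, limma adjusted p = 0.00931). Aarsd1 (log2 difference 1.80, adjusted p = 0.00925), the HSP90-linked Nudc (1.49, adjusted p = 0.0114) and the heat shock factor Hsf2 (1.23, adjusted p = 0.0158) were also higher, each without overlap. Nudc lost its call without TNE replicate 2 (adjusted p = 0.0574), and Hsf2 without TNE replicate 2 (0.0782) or TPIN replicate 2 (0.0522). The other 4 that rose were Fkbp5, Ppid and Ahsa1, which bind HSP90, and the prefoldin subunit Pfdn6, which hands substrates to CCT. Bag3, the partner of HSP70 and Hspb8, was the 1 that fell, and is named because the count is 1: it measured 10.61, 10.38 and 9.83 in TPIN and 9.14, 7.89 and 7.75 in TNE, 4.03-fold lower (log2 difference -2.01, SE 0.43, limma adjusted p = 0.0171). Its groups did not overlap, while those of Hspb8 did. The number of higher partners was 4 on leaving out either TPIN replicate 1 or 2, 14 on leaving out TPIN replicate 3, 2 on leaving out TNE replicate 2 and 5 on leaving out TNE replicate 3, and Bag3 lost its call on leaving out TPIN replicate 1 or 2 or TNE replicate 2.

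Folding genes of the endoplasmic reticulum were read from a list of 30, of which 25 have a row. In limma 3 fell (12%, against 10.2% of all genes, a share near the background) and none rose, nor did any at an unadjusted p under 0.05. For 10 genes (40%, against 20.5% of all genes) the TNE arrays all lay below the TPIN arrays, 21 differences were negative and the median was -0.39. Serpinh1, the collagen-specific chaperone, measured 11.48, 11.98 and 11.27 in TPIN and 6.72, 7.03 and 8.17 in TNE, 19.2-fold lower (log2 difference -4.27, SE 0.43, limma adjusted p = 0.00124). The collagen genes Col1a1 and Col1a2 among the fibroblast markers fell as well, with log2 differences of -3.93 and -4.37, and the part of that cell type's RNA was not tested. Pdia4, a disulfide isomerase, measured 12.27, 12.22 and 12.05 in TPIN and 11.26, 11.27 and 11.04 in TNE, 1.99-fold lower (log2 difference -0.99, SE 0.25, limma adjusted p = 0.0309). Ero1a, the oxidase that recharges such isomerases, measured 11.14, 12.09 and 11.56 in TPIN and 10.47, 9.55 and 10.55 in TNE, 2.66-fold lower (log2 difference -1.41, SE 0.39, limma adjusted p = 0.0395). Both had groups without overlap. Ero1a lost its call with each of the 6 arrays left out (adjusted p 0.0513 to 0.134) and Pdia4 with each except TPIN replicate 3 (up to 0.101), and under quantile normalization neither passed. Ppib, a prolyl isomerase for collagen, had a difference of -0.81 (limma adjusted p = 0.0641). Its adjusted p was 0.0369 without TPIN replicate 3 and 0.113 to 0.18 without any other single array. The number of lower genes was 7 when TPIN replicate 3 was left out, 2 when TNE replicate 1 was left out and 1 for each of the other 4 arrays.

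**Figure D4:**
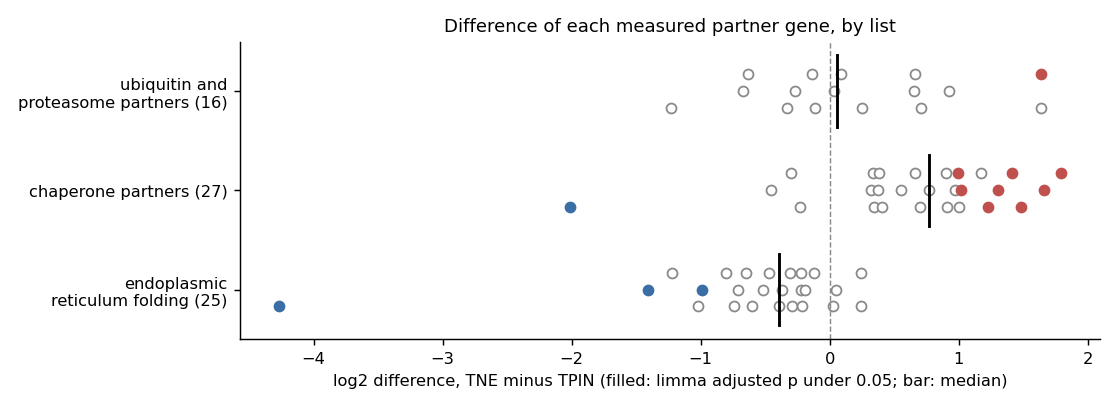
Log2 difference (TNE minus TPIN) on the horizontal axis for each measured gene of the 3 partner lists, with the number of genes in brackets; filled points passed limma at an adjusted p under 0.05, and black bars are medians. The median is 0.77 for chaperone partners and -0.39 for endoplasmic reticulum folding genes, with Serpinh1 far to the left at -4.27.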

How the data were processed

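The deposited table holds log2 expression values of 6 single-colour arrays, produced by the authors through RMA, per the submitters' processing notes; no source used here gives its version. RMA corrects background, gives all arrays one distribution and narrows differences near background. In the genes tested here the array medians still ran from 8.83 to 9.13, so these values do not share one distribution. The table has 10361 rows, chosen by a rule that the labels do not state, and the number of arrays limits the precision.

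Groups came from sample titles; replicate numbers follow series order. Rows with 1 symbol were kept, with the row of highest mean for 6 genes, and 9490 genes were compared with limma 3.58.1 (R 4.3.3, two-sided, Benjamini-Hochberg, threshold 0.05, 95% intervals). The fit was tested on simulated data. Members and lists were chosen with earlier results of these data known, so no list test was made. Named were members past the threshold with groups apart, per family the highest mean and the smallest p, the widest spreads, and up to 4 partners per list with the smallest p; the genes of the printed promoters, subunits that complete a family, and marker genes were added. Alternatives were normalization, centring, a filter below the 25th percentile, variance models, array weights, all rows and each array left out. Promoters came from RefSeq (GRCm38.p6); all 92 members matched it by Entrez identifier. Protein sequences were not used here.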

Additional observations from a re-analysis of the deposited data

How the results depend on the processing

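None of the 14 calls was lost under another normalization, centring, filter, variance model, weighting or row set; Dnajc9, Psmc3ip and Hspa12b also kept theirs with each array left out. Members higher in TNE numbered 20 with quantile normalization, 37 with array weights and 2 to 25 with 1 array left out, against 11; members lower numbered 10 with array weights and 1 to 9 with 1 array left out, against 3. Of all genes, 20.5% passed in either direction in the main fit, 22.1% with quantile normalization and 45% with array weights. That share was 21.4% with centring, 24.3% with dim rows left out and 8.77% to 27.4% with 1 array left out. The counts of members and of the partner lists are to be read beside these shares. Leaving out Psmc3ip, an alternative chosen after seeing the data, gave 10 higher. Chaperone partners higher numbered 16 with array weights and 2 to 14 with 1 array left out, and lower 0 to 1. Endoplasmic reticulum folding genes lower numbered 1 with quantile normalization, 10 with array weights and 1 to 7 with 1 array left out. Ubiquitin and proteasome partners higher numbered 2 with quantile normalization, centring or dim rows left out, 6 with array weights and 0 to 3 with 1 array left out, and lower 2 with array weights and 0 to 2 with 1 array left out. Hsp90b1 (-0.05) turned to 0.25 with quantile normalization and ran from -0.11 to 0.027 with 1 array left out, positive for TPIN replicate 3 or TNE replicate 2. Hspe1 (-0.06) turned to 0.16 with quantile normalization and 0.047 with array weights and ran from -0.19 to 0.14 with 1 array left out, positive for TNE replicate 3. The cause was not tested. The median member difference kept its sign. No paired analysis was possible because the titles carry a separate code for each sample, whose meaning the labels do not state, and no shared replicate number. Batches were therefore not compared, also for TPIN replicate 3. The table gives no background level, so low values give no statement of absence.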
